A study of Mus musculus with 8 samples.

Results

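The genes described here are those of the heterochronic pathway, which sets the timing of developmental stages, in migrating primordial germ cells (PGCs) of the mouse. The 8 genes were chosen by name: Lin28a, Lin28b, Trim71, Hmga2, Hmga1, Igf2bp1, Igf2bp2 and Igf2bp3. Of these, 6 had a probe with a single gene symbol and were measured, out of 19938 genes on the array, and the remaining 2, Hmga1 and Igf2bp2, are not analysed here. The choice was made with 2 comparisons of these data in view, the relation of each gene to somite number, in which Trim71 and Hmga2 were known to be lower in older embryos, and the comparison of genotypes. Somite slopes and genotype differences of these genes are therefore descriptions, given with their errors and no p-value.

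PGCs are the embryonic precursors of sperm and eggs. They were sorted from the posterior part of single embryos at embryonic day 9.5, by the green fluorescence of an Oct4-ΔPE transgene that their fathers carried. The 4 mutant embryos were Ror2Y324C/Y324C, homozygous for a single amino acid change in the Wnt5a receptor Ror2, and had 24, 22 to 23, 23 and 21 to 22 somites (mutant 1 to 4). The 4 WT embryos were Ror2+/+ and had 25, 25, 22 and 21 somites (WT 1 to 4). Females and males heterozygous for the allele were mated, the strain is labelled as mixed, and each embryo had its own array. Array medians ran from 5.37 to 5.49 in mutants and from 5.39 to 5.58 in WT, on the log2 scale. Ror2 was at 7.81 ± 0.34 in mutants and 7.69 ± 0.21 in WT (log2, SD, n = 4 each), which does not check the labels because the allele leaves the gene in place. Pou5f1, the gene whose regulatory sequence drives the reporter, was at 11.24 ± 0.12 and 11.13 ± 0.18 in mutants and WT. All 17 PGC markers lay above a background guide of 5.27, the 95th percentile of the mean level of 1027 olfactory receptor genes, a family of the sensory epithelium of the nose. In mutant 4 and WT 3, Xist was at 6.31 and 7.07 and the mean of 3 Y-linked genes at 3.71 and 3.74, while in the other 6 arrays Xist lay from 3.50 to 4.11 and the Y-linked mean from 7.21 to 7.73.

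Lin28a and Lin28b encode RNA-binding proteins that bind precursors of the let-7 microRNA family and block their maturation, and Lin28 is known to be needed for mouse PGCs to form. Mature let-7 in turn represses messages that carry matches to its seed, among them Lin28a, Lin28b, Trim71, Hmga2 and the Igf2bp genes. Lin28 and these targets are high in early embryonic cells and decline as tissues mature and let-7 accumulates. The family is recognised by its shared seed, bases 2 to 8 of the mature strand, in capitals below. The sequences are shown because these genes are textbook targets of the family. They are RefSeq's (GRCm38.p6), matched by gene symbol, with 14 of 16 listed precursors having a single-gene probe. The 4 let-7 strands share the seed GAGGUAG, and miR-125a, the counterpart of worm lin-4 in the same pathway, has another.

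mmu-let-7a-5p: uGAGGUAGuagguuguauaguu
mmu-let-7g-5p: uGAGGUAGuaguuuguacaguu
mmu-let-7i-5p: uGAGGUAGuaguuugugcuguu
mmu-miR-98-5p: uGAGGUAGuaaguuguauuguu
mmu-miR-125a-5p: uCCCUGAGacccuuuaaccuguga

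Trim71, an RNA-binding repressor with a RING domain and the mouse counterpart of worm lin-41, had lower values in embryos with more somites. In order of somite number its log2 value was 9.58 at 21 somites (WT 4), 8.41 at 21 to 22 (mutant 4), 8.65 at 22 (WT 3), 8.20 at 22 to 23 (mutant 2), 8.42 at 23 (mutant 3), 8.32 at 24 (mutant 1), and 7.98 and 8.08 at 25 (WT 1 and WT 2). WT 4, the embryo with the fewest somites, stood highest, and the 2 embryos of 25 somites stood lowest. The slope with genotype in the model was -0.27 ± 0.07 log2 per somite (SE, limma), or 0.83-fold for each somite. Without WT 4 it was -0.14 ± 0.07, and without both embryos of 25 somites, an alternative added after the data were seen, -0.14 ± 0.15. With array width (the SD of probes without a gene symbol) as a covariate it was -0.27 ± 0.13.

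Hmga2, an architectural chromatin protein of embryonic and stem cells, followed somite number closely. Its log2 value was 7.06 at 21 somites, 7.10 at 21 to 22, 6.94 at 22, 6.39 at 22 to 23, 6.34 at 23, 6.32 at 24, and 6.17 and 5.94 at 25. The 3 embryos whose midpoint was at most 22 somites, 1 mutant and 2 WT, lay from 6.94 to 7.10, and the 5 with more somites lay from 5.94 to 6.39. Such a separation, with the younger embryos higher, held for 9.23% of all genes, and the division at 22 somites was chosen after the values were seen. The slope was -0.27 ± 0.05 log2 per somite (SE, limma), or 0.83-fold for each somite. It was -0.30 ± 0.07 without WT 4, -0.24 ± 0.05 without mutant 4 and -0.28 ± 0.11 without both embryos of 25 somites. With array width as a covariate it was -0.20 ± 0.09. That width was 2.34 in each of the 3 youngest embryos and from 2.30 to 2.33 in the others. The SD over all genes ran the other way, at 1.82 in WT 4, 1.83 in mutant 4 and 1.77 in WT 3. In the others it lay from 1.86 to 1.95, and it was not used as a covariate. Both spreads and somite number thus ran together, and their parts in the relation were not told apart. Of the 3 youngest embryos, mutant 4 and WT 3 are those in which Xist was high and Y-linked genes were low. Without them the slope was -0.23 ± 0.06, and WT 4 (7.06) stood above the remaining 5 embryos. The part of sex in the relation was not tested further.

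**Figure D1:**
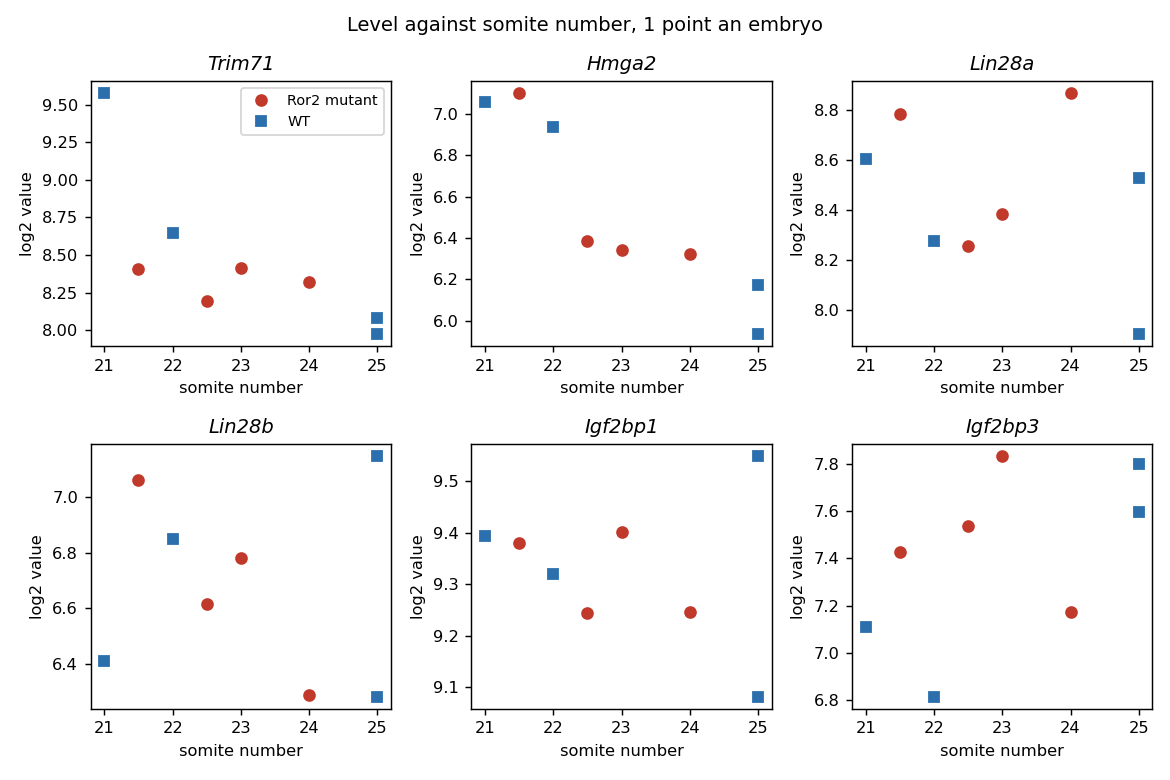
Log2 value of each measured gene (vertical axis) against somite number (horizontal axis, midpoint of a range), 1 point an embryo, with circles for mutant and squares for WT. Hmga2 lies from 6.94 to 7.10 in the 3 youngest embryos and from 5.94 to 6.39 in the others, and Trim71 is highest at 21 somites (9.58), while the remaining 4 genes have no such order.

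The 2 genotypes were also taken apart. In the 4 mutant embryos alone, Hmga2 had a slope of -0.30 ± 0.13 and in the 4 WT embryos alone one of -0.26 ± 0.06 (SE, limma). Trim71 had slopes of -0.02 ± 0.11 in mutant embryos alone and -0.33 ± 0.07 in WT embryos alone. The mutants spanned 21.5 to 24 somites by midpoint and WT embryos 21 to 25, so both ends of the range were WT. The slope in mutants minus that in WT was 0.32 ± 0.14 for Trim71 and -0.04 ± 0.14 for Hmga2 (SE, limma), given as descriptions. The Hmga2 slope in mutants rests on mutant 4, at 7.10, while mutants 1 to 3 lay from 6.32 to 6.39. Without mutant 4 the difference of slopes for Hmga2 was 0.22 ± 0.18, so a fall of Hmga2 in both genotypes is not shown. Over all 19938 genes, this difference of slopes had an adjusted p under 0.05 for 0 and an unadjusted p under 0.05 for 4.52%.

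The windows upstream of Trim71 and Hmga2 are shown because both had a negative somite slope over all embryos, the relation known when they were chosen. Each window is the 250 bases before the annotated start (RefSeq, GRCm38.p6). Capitals mark matches on either strand to the GC box GGGCGG. Each window held 1, and 32.7% of 32851 windows of the same length held at least 1. Neither held the E-box CACGTG (6.02% of windows), the octamer ATGCAAAT (1.6%), the TATA box TATAAA (12.4%) or the CCAAT box CCAAT (33.8%). These matches describe letters only and carry no statement about binding.

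Trim71, chr9:114564370-114564619, minus strand: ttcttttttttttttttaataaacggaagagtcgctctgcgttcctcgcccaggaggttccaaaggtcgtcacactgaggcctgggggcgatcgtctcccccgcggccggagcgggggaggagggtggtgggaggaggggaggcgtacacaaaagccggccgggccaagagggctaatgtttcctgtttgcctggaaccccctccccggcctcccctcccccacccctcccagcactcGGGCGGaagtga
Hmga2, chr10:120476470-120476719, minus strand: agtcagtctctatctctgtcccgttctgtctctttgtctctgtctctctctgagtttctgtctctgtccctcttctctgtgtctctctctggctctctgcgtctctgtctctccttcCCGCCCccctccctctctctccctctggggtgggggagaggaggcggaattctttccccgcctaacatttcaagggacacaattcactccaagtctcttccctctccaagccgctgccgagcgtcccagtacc

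Lin28a and Lin28b, which act upstream of both genes, had no steady order by stage. Lin28a ran by somite number as 8.61 at 21, 8.78 at 21 to 22, 8.28 at 22, 8.26 at 22 to 23, 8.38 at 23, 8.87 at 24, and 8.53 and 7.90 at 25, with a slope of -0.05 ± 0.07 log2 per somite (SE). Its lowest value and one near the top of the WT range both came from embryos of 25 somites. Lin28b ran as 6.41, 7.06, 6.85, 6.61, 6.78, 6.29, and 7.15 and 6.28 in the same order, with a slope of -0.03 ± 0.08. Its highest and lowest values were both at 25 somites. In the mutants alone the slope of Lin28b was -0.28 ± 0.11, and in WT alone 0.04 ± 0.09, and the difference of slopes was -0.32 ± 0.18. With 1 embryo left out, the slope over all embryos ran from -0.11 to 0.015 for Lin28a, and was positive without WT 2 or WT 4. For Lin28b it ran from -0.13 to 0.042, and was positive without WT 2, mutant 1 or mutant 4. Both Lin28 genes lay above the background guide in each of the 8 embryos.

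Igf2bp1 and Igf2bp3 encode cytoplasmic proteins that bind messages such as Igf2 and actin mRNA and affect their stability and translation. By its brighter probe (10390211), Igf2bp1 was nearly level, at 9.25, 9.24, 9.40 and 9.38 in mutants 1 to 4 and 9.55, 9.08, 9.32 and 9.39 in WT 1 to 4, with a slope of -0.02 ± 0.05 log2 per somite (SE). With 1 embryo left out the slope ran from -0.068 to 0.024, and was positive without WT 2. Its other single-gene probe (10390209) spread far more widely, from 6.17 to 8.12 in mutants and from 6.06 to 8.66 in WT. By that probe the embryos of 25 somites were at 8.66 and 7.76 and WT 4, at 21 somites, at 6.06, and its slope was 0.36 ± 0.17. The 2 probes of Igf2bp1 therefore disagreed in their spread and in the sign of the slope, and no value for the gene as a whole is given. For the other probe the slope in mutants minus that in WT was -0.94 ± 0.31 (SE). Igf2bp3 was at 7.17, 7.53, 7.83 and 7.43 in mutants and at 7.80, 7.60, 6.82 and 7.11 in WT, with a slope of 0.14 ± 0.07. This positive sign was absent in mutants alone (-0.07 ± 0.14), without both embryos of 25 somites (-0.10 ± 0.13) and with the spread of unnamed probes of each array as a covariate (-0.11 ± 0.08).

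The genotypes were then compared for the 6 genes. For all 6 the values of mutant and WT PGCs overlapped, and 2.52% of all genes had groups that do not overlap, a share from which nothing is read because the genes were chosen with this comparison in view. Over the 19938 genes tested with limma, 0 had an adjusted p under 0.05 and 934, or 4.68%, an unadjusted p under 0.05. The medians of the difference were 0.01 for the 6 genes and -0.02 for all genes.

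The log2 value of Lin28a was 8.87, 8.26, 8.38 and 8.78 in mutants 1 to 4, against 8.53, 7.90, 8.28 and 8.61 in WT 1 to 4. Of the mutants, 2 lay above every WT embryo and 2 within the WT range. The means were 8.57 ± 0.30 in mutants and 8.33 ± 0.32 in WT (SD, n = 4 each), which differed by 0.24 (95% interval -0.19 to 0.68). Lin28b was at 6.69 ± 0.32 in mutants and 6.67 ± 0.40 in WT, which differed by 0.01 (95% interval -0.48 to 0.51.)

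Trim71 was at 8.34 ± 0.10 in mutants and 8.57 ± 0.73 in WT (SD, n = 4 each), which differed by -0.23 (95% interval -0.90 to 0.43). The 4 mutant values, from 8.20 to 8.42, lay inside the WT range of 7.98 to 9.58. Without WT 4 the sign of the difference turned, to 0.10. Hmga2 was at 6.54 ± 0.38 in mutants and 6.53 ± 0.55 in WT, which differed by 0.01 (95% interval -0.60 to 0.62.) With somite number as a covariate the difference was -0.12 ± 0.15 for Hmga2 and -0.37 ± 0.20 for Trim71 (SE, limma).

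Igf2bp1 by its brighter probe was at 9.32 ± 0.08 in mutants and 9.34 ± 0.20 in WT, which differed by -0.02 (95% interval -0.32 to 0.28.) By the other probe the means were 7.25 ± 0.80 in mutants and 7.24 ± 1.19 in WT, with a 95% interval of the difference from -1.22 to 1.24. Igf2bp3 was at 7.49 ± 0.27 in mutants and 7.33 ± 0.45 in WT, which differed by 0.16 (95% interval -0.34 to 0.66.) The width of these intervals means that the comparison does not show the genotypes to be alike.

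**Figure D2:**
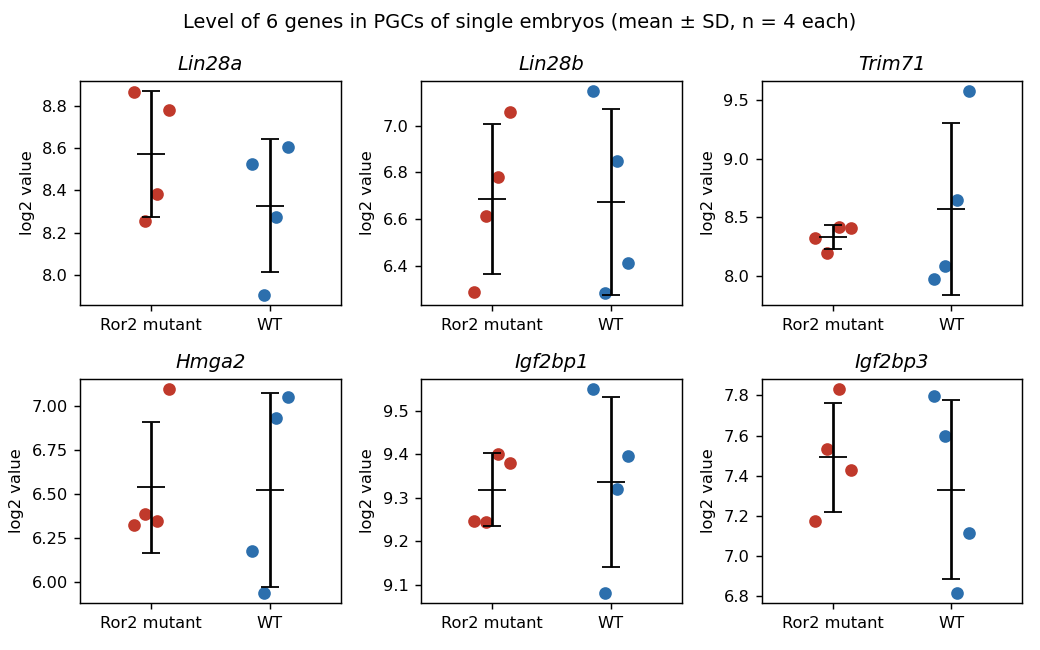
Log2 value of each measured gene in the 4 mutant (left) and 4 WT (right) embryos, with points for embryos and bars for the mean ± SD. The groups overlap for every gene, and the Trim71 values of mutants (8.20 to 8.42) lie inside the WT range (7.98 to 9.58).

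**Figure D3:**
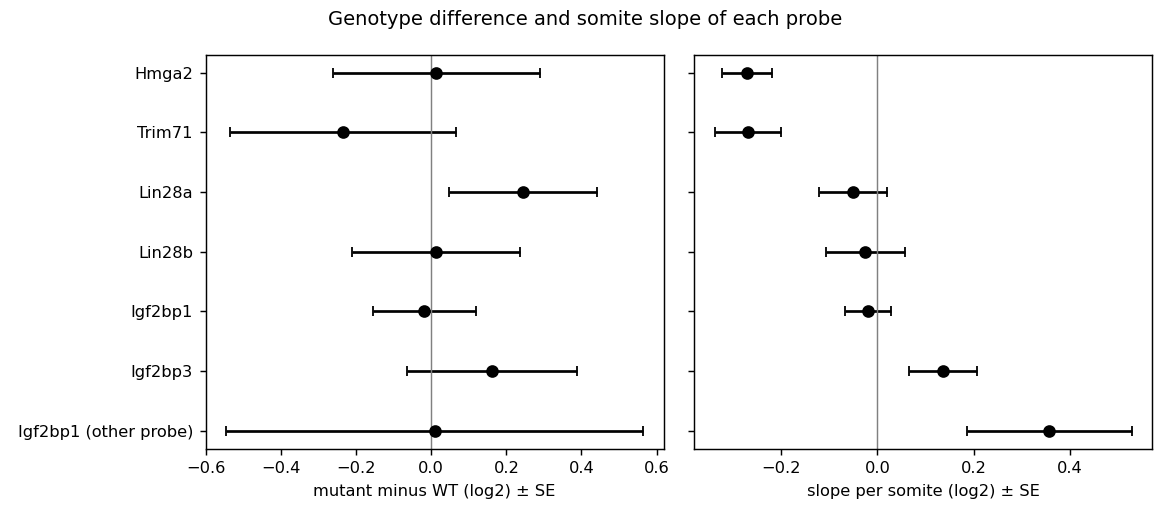
Difference of mutant minus WT (left) and slope per somite (right) on the log2 scale with SE, for each measured gene and for the other Igf2bp1 probe. The differences by the brightest probe lie from -0.23 (Trim71) to 0.24 (Lin28a), and Trim71 and Hmga2 share a slope of -0.27 while the other Igf2bp1 probe has 0.36.

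Of the let-7 family and miR-125 precursors, only Mirlet7i and Mir125a had a mean over the 8 arrays above the background guide, and the other 12 of 14 had one below it. The probes cover precursor sequence and do not report the mature microRNA, the form that Lin28 controls. Mirlet7i was at 5.59 at 21 somites, 5.85 at 21 to 22, 5.88 at 22, 5.14 at 22 to 23, 5.77 at 23, 5.85 at 24, and 7.43 and 6.65 at 25. Both embryos of 25 somites, WT 1 and WT 2, stood above the other 6. The mutants, none of which had 25 somites, lay from 5.14 to 5.85 with no rise by somite number. No slope of Mirlet7i is given by genotype or without WT 1 and WT 2. Over all embryos the slope of Mirlet7i was 0.30 ± 0.09 log2 per somite (SE), with a limma adjusted p of 0.420 over all genes. Of the precursors, 1 of 14 had an unadjusted p under 0.05 for the slope, against 9.74% of all genes. In the comparison of genotypes Mirlet7i was at 5.65 ± 0.34 in mutants and 6.39 ± 0.83 in WT (SD, n = 4 each, limma adjusted p 0.973).

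For mutant against WT, 2 of 14 precursors had an unadjusted p under 0.05, where 4.68% of all genes did, and 0 passed after adjustment. Mirlet7g was at 5.71, 5.57, 4.78 and 5.69 in mutants, against 5.12, 4.68, 4.74 and 4.37 in WT, a difference of 0.71 ± 0.23 (SE, limma adjusted p 0.973). Mir98 was at 3.46, 3.74, 3.72 and 3.71 in mutants, against 4.85, 3.94, 3.67 and 4.45 in WT, a difference of -0.57 ± 0.23 (limma adjusted p 0.973). The pair went in opposite directions, and their groups overlapped. The mean over the 8 arrays lay below the background guide for both, while the mutant mean of Mirlet7g, 5.44, lay above it. The median difference was -0.05 for the 14 precursors and -0.02 for all genes.

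**Figure D4:**
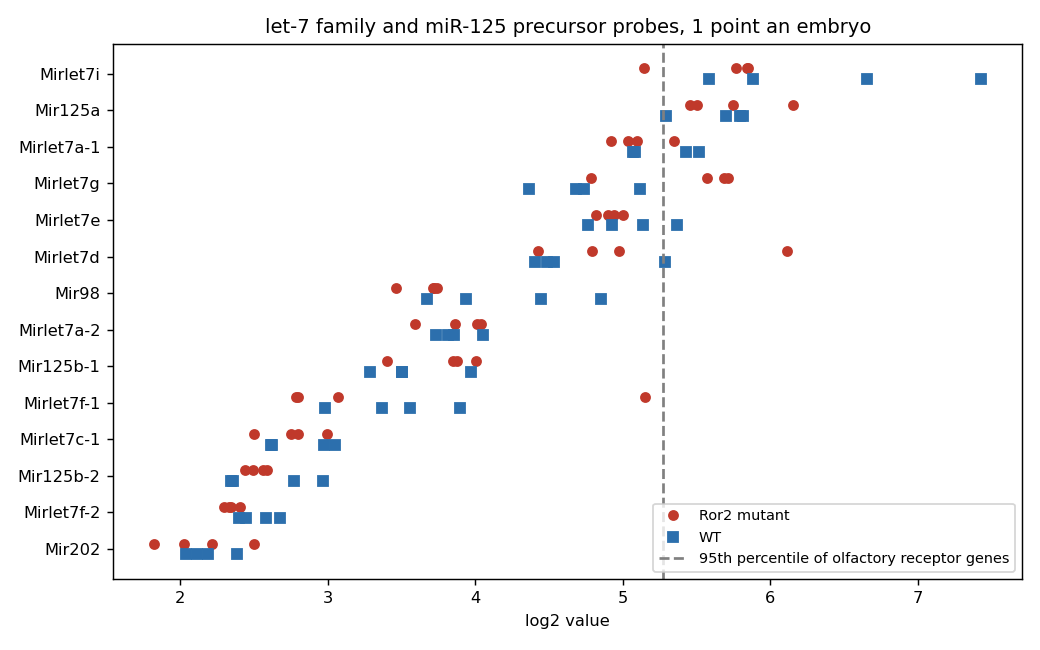
Log2 value of each let-7 family and miR-125 precursor probe, 1 point an embryo, with circles for mutant (upper row of each pair) and squares for WT. The dashed line is the background guide at 5.27, which only Mirlet7i and Mir125a exceed by their means over the 8 arrays.

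Of 25 listed enzymes and partners that process microRNAs or destroy let-7 precursors, 21 were measured. For genotype 0 of 21 had an unadjusted p under 0.05, against 4.68% of all genes, and for the somite slope 2 of 21 had one, against 9.74% of all genes, a share near that of all genes. Tarbp2, the double-stranded RNA-binding partner of Dicer, had 0.16 ± 0.05 log2 per somite (SE) and the silencing scaffold Tnrc6a 0.14 ± 0.05, with limma adjusted p of 0.456 and 0.474. The median slope was 0.04, against -0.02 over all genes.

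Other genes known as let-7 targets were compared because they share the seed matches of the family. Of 31 listed, 27 were measured, and 3 had an unadjusted p under 0.05 for the somite slope, where 9.74% of all genes did. Dusp9, a phosphatase of ERK kinases, had -0.21 ± 0.07 log2 per somite (SE) and the cell surface protein Igdcc3 -0.17 ± 0.06, with limma adjusted p of 0.428 and 0.474. Nr6a1, the germ cell nuclear factor that represses Pou5f1, had a positive slope of 0.13 ± 0.05 (0.474). The median slope of the 27 was -0.02, the same as over all genes. For genotype, 1 of 27 was called at an unadjusted p under 0.05, where 4.68% of all genes were, the insulin receptor Insr, at 6.95 ± 0.25 in mutants and 6.39 ± 0.54 in WT (SD, n = 4 each, limma adjusted p 0.973).

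Igf2, the growth factor whose message gave the Igf2bp family its name, was higher in the younger embryos. Its log2 value was 8.86 at 21 somites, 8.23 at 21 to 22, 7.42 at 22, 6.68 at 22 to 23, 5.97 at 23, 6.57 at 24, and 6.30 and 6.53 at 25. As with Hmga2, the 3 youngest embryos were all above the others. Such a separation held for 9.23% of all genes, and the division was chosen after the values were seen. The 3 youngest also had the narrowest spread of log2 values over all genes (SD from 1.77 to 1.83). Among the 3 youngest, mutant 4 and WT 3 are those with high Xist. Of the 6 embryos without high Xist, WT 4 (8.86) stood above the remaining 5 (5.97 to 6.68). The slope was -0.56 ± 0.11 log2 per somite (SE), with a limma adjusted p of 0.310. Of 10 measured genes in the list of Igf2bp-bound messages and the growth axis, 3 had an unadjusted p under 0.05 for the slope, against 9.74% of all genes. The other 2 were Igf1 (-0.11 ± 0.05), below the background guide, and the ubiquitin ligase subunit Btrc (0.24 ± 0.08). Igf2 did not separate the genotypes, at 6.86 ± 0.96 in mutants and 7.28 ± 1.16 in WT.

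**Figure D5:**
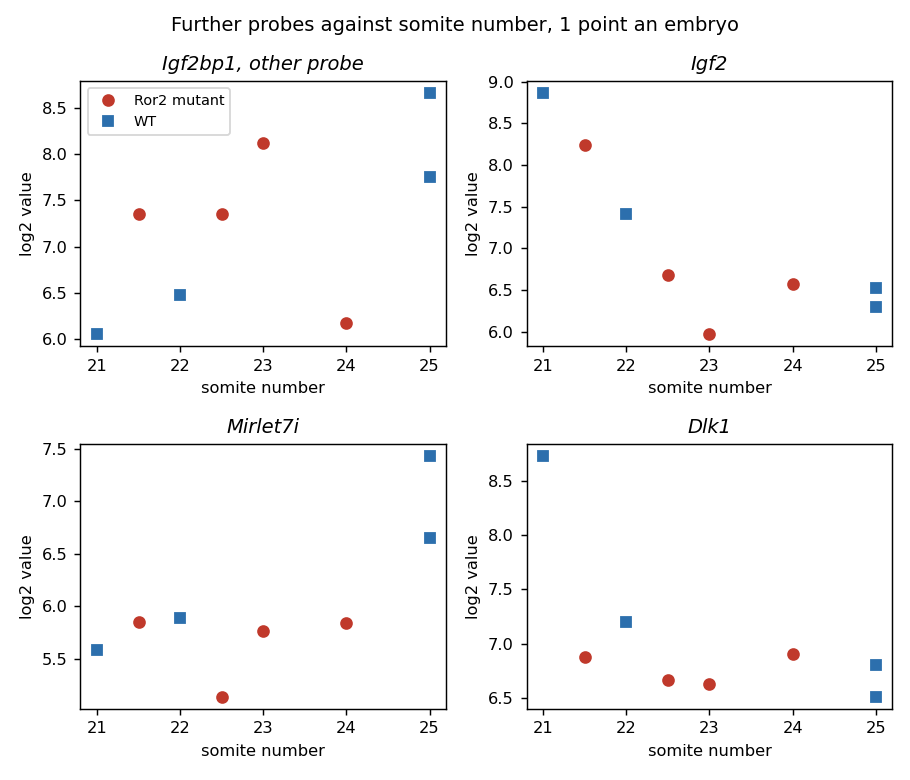
Log2 value of the other Igf2bp1 probe, Igf2, Mirlet7i and Dlk1 against somite number, 1 point an embryo, with circles for mutant and squares for WT. Igf2 is above 7.4 only in the 3 youngest embryos (7.42 to 8.86) and Dlk1 is highest in WT 4 (8.73). Mirlet7i is highest in the embryos of 25 somites (7.43 and 6.65), both WT.

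Genes of Trim71's known targets and partners, relatives of Hmga proteins, and genes that stage the body axis were read against the 9.74% of all genes with an unadjusted p under 0.05 for the slope. Of 8 measured in the Trim71 list, 2 had an unadjusted p under 0.05 for the slope, Shcbp1 at 0.21 ± 0.07 log2 per somite (SE) and the early response factor Egr1 at -0.14 ± 0.05. Of 10 chromatin relatives, 1 did, Hmgxb3 at 0.19 ± 0.07. Of 14 axial genes, 1 did, Nr6a1, which the let-7 target list also holds. With 1 or 2 calls a list, none is read as a result about the list. For genotype, 0 genes of these lists had an unadjusted p under 0.05, against 4.68% of all genes.

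Across the 8 embryos, with the mean of each genotype taken off, 4 genes were named by the highest Pearson correlation with each of 4 genes, out of the genes of above-median level that are not predicted genes. The values describe the best matches among 9606 candidates over 8 arrays. Clasp2, Gas1, Mir23a and Dlk1 were most like Trim71, with r from 0.97 to 0.98. Trim71 had an SD of 0.10 in mutants and 0.73 in WT, so its r values rest largely on WT embryos. Among these, Trim71 and each of its matches were highest in WT 4. Dlk1, an imprinted Notch-related protein of embryonic tissue, was at 8.73 in WT 4, from 6.51 to 7.19 in WT 1 to 3 and from 6.63 to 6.91 in mutants. Mir219a-1, Amot, Smim41 and Mrps18c were most like Hmga2 (0.98), Slc12a7, Dap, Ndrg2 and Secisbp2 most like Lin28a (0.94 to 0.97), and Epn2, Hmgxb4, Nlk and Dph7 most like Lin28b (0.96 to 0.99). No gene was named for more than 1 of the 4. Between the members themselves, r was 0.75 for Trim71 with Hmga2, 0.76 for Lin28b with Igf2bp1 by its brighter probe, 0.60 for Lin28a with Igf2bp1, 0.22 for Lin28a with Lin28b, and -0.65 for Hmga2 with Igf2bp3. Trim71 and Hmga2 were both known to be lower in older embryos when chosen, so their r is no separate support.

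The sort could hold other cells of the posterior embryo, many of which also express these genes at this stage, and in bulk RNA fewer cells of a type and less RNA per cell cannot be told apart. The arrays highest in Trim71 or Hmga2 also stood high in some marker lists. The mean of 10 hindgut endoderm markers, 9 of them above the background guide, was from 6.76 to 7.05 in mutants and from 6.54 to 7.17 in WT, highest in WT 4 and then mutant 4. Within it, the keratin Krt18 was at 9.47 in WT 4 and from 6.56 to 7.70 in all other embryos. This gene weighed on the mean of WT 4, so the rank of WT 4 does not describe the list as a whole. The mean of 17 PGC markers was from 9.90 to 9.99 in mutants and from 9.62 to 9.99 in WT, lowest in WT 3 (9.62) and WT 4 (9.81). Tcl1 of that list was at 5.31 in WT 4 and from 7.16 to 7.50 in mutants. Elf3 of that list was at 5.79 in WT 4 and from 7.05 to 7.63 in mutants. Both genes weighed on the mean of WT 4, which therefore does not describe the list as a whole. In WT 3, whose mean was the lowest, Tcl1 was at 6.46 and Elf3 at 5.94. In WT 1 and WT 2 Tcl1 was at 7.84 and 8.22 and Elf3 at 7.04 and 7.26. Whether the low mean of WT 3 holds without both genes was not tested. Pou5f1, also of that list, was at 11.22 in WT 4, from 11.13 to 11.37 in mutants and lowest in WT 3 (10.91). WT 3 was highest for primitive erythroid (5.47, 5 of 9 markers above the guide), trunk mesenchyme (5.24, 3 of 12), tailbud progenitor (6.07, 6 of 9), neural tube (5.68, 5 of 8) and macrophage (5.08, 2 of 10) markers. WT 3 also had the highest array median, 5.58 against 5.37 to 5.49 in the others. The part of that median in these ranks was not tested. Mutant 4 was highest for urogenital mesoderm (5.68, 5 of 8), and mutant 3 for endothelium (5.53, 3 of 8) and neural crest (5.79, 4 of 5). The slope of Trim71 was -0.34 ± 0.07 and that of Hmga2 -0.23 ± 0.06 with WT 3 and mutant 4, the arrays with high Xist, left out. The part of other cells in the relation of Trim71, Hmga2 and Igf2 to somite number was not tested.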

How the data were processed

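Arrays of 8 single-embryo PGC samples were used, grouped and staged from the labels. Per the labels' protocols, RNA was amplified with NuGEN Ovation FFPE WTA. The deposited table holds 1 value for each of 35557 probes, from 0.99 to 13.83, taken as log2 values normalized by the authors; the sources used here do not name their method. No scanner values were used, so detection was not called. Probes numbered 21789 with 1 gene symbol in the platform annotation, 1621 with several and 12147 unnamed here. Each of 19938 genes was represented by its single-gene probe of highest mean. Probe brightness is not compared between genes, except with the olfactory receptor guide.

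Tests used limma 3.58.1 (R 4.3.3; lmFit, eBayes, prior degrees of freedom 4.48), with Benjamini-Hochberg adjustment over all genes at 0.05, for genotype, for somite number with genotype, and for their interaction. Intervals cover 95%. The scripts were tested on simulated data. The number of arrays limits the precision. Named were the 6 measured members, list genes with an unadjusted p under 0.05 (at most 4 a list and fit), the let-7 precursors and the 4 genes most like each of Trim71, Hmga2, Lin28a and Lin28b. The members and lists were chosen with earlier results of these data known. Same-numbered embryos share only a number.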

Additional observations from a re-analysis of the deposited data

Results flagged for a closer look

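A sample that stood apart from the other 3 of its group by Dixon's 95% criterion was looked for in 42 groups of 4 values, and 6 were found where chance flags about 1 in 20. Hmga2 in mutant 4 (7.10) was one, the youngest of the mutants. The others were precursors: Mirlet7i in mutant 2 (5.14), Mirlet7g in mutant 3 (4.78), Mirlet7f-1 in mutant 2 (5.15), Mirlet7d in WT 1 (5.28) and Mir98 in mutant 1 (3.46). Of the precursors, all but Mirlet7i had a mean over the 8 arrays below the background guide.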

How the results depend on the processing

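Trim71 and Hmga2 kept a negative somite slope under all 22 alternatives, from -0.34 to -0.02 for Trim71 and from -0.30 to -0.20 for Hmga2. The value of -0.02 is that of mutants alone, and that of -0.20 is with array width as a covariate. Both genes were chosen with this slope in view, so its kept sign is a description and no support for it. For mutant against WT, 0 genes passed under all 17 alternatives, and the count at an unadjusted p under 0.05 (934) was 729 to 1715 with 1 embryo left out (1715 without WT 1), 1664 with array width (the SD of unnamed probes) added as a covariate, and 538 among genes above the median level, where fewer were tested. That count split into 543 higher and 391 lower, 644 and 325 after quantile normalization, and 796 and 230 after median centring. For the slope, 0 passed (0 to 2 with 1 embryo left out, 5 without WT 3 and mutant 4, 1 with the upper end of somite ranges), and those that did, named after their values were seen, were Podxl, Fmr1nb, Snora16a, Gdap10, Commd6, Igfbp2, Mir15a and Mir30e. Its unadjusted count of 1942 (1298 to 2318 with 1 embryo left out) was 1046 among genes above the median level, 708 with the SD covariate, 1173 in mutants alone and 936 without both embryos of 25 somites. It split into 1000 positive and 942 negative, and 1419 and 491 after median centring. For the interaction, 0 passed, with 902 unadjusted (847 to 1113 with 1 embryo left out) and 546 among genes above the median level. With the replicate number as a block, 891 genes had an unadjusted p under 0.05 for genotype, 675 for the slope, and 70 passed for the interaction after adjustment, with few residual degrees of freedom; same-numbered embryos correlated from -0.19 to 0.10, so the numbers do not pair them. Small differences changed sign. With 1 embryo left out, the genotype difference ran from -0.18 to 0.19 for Hmga2, -0.12 to 0.17 for Lin28b, -0.10 to 0.053 for Igf2bp1, -0.010 to 0.32 for Igf2bp3 and -0.43 to 0.10 for Trim71, and without a change of sign from 0.10 to 0.35 for Lin28a (0.10 without WT 2), and the interaction from -0.27 to 0.22 for Hmga2, -0.087 to 0.039 for Igf2bp1, -0.49 to 0.058 for Igf2bp3 and -0.23 to 0.49 for Lin28a. The difference of Hmga2 was -0.0050 after quantile normalization, -0.037 without WT 3 and mutant 4, -0.16 with the SD covariate and -0.12 with somite number. That of Lin28b was -0.053 without WT 3 and mutant 4 and -0.00016 with somite number, and that of Igf2bp1 0.042 after median centring. The interaction of Hmga2 was 0.21 without WT 3 and mutant 4 and 0.026 with the lower end of somite ranges. The cause of these shifts was not tested. Of the let-7 and miR-125 precursors, 12 of 14 had a mean over the 8 arrays below the background guide.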
